A study of Homo sapiens with 21 samples.

Results

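Ghrelin is the peptide hormone of the epsilon cell, and 3 genes of its locus and its modification were followed: GHRL, which encodes the hormone, GHRLOS, a non-coding gene on the opposite strand of the same locus, and MBOAT4, which encodes the enzyme that acylates ghrelin. They were taken from the count table by gene symbol and are 3 of 62699 genes. The choice of these genes was made with earlier results of these data known. All 3 passed the filter on low counts, which 25884 genes passed. The cells were islet cells made from H1, a human embryonic stem cell line, either unedited (WT) or labelled as ISL1-/-, PAX6-/- or PDX1-/-. ISL1, PAX6 and PDX1 are transcription factors of pancreatic endocrine cells. On day 11 of differentiation the cells received a lentivirus with either BFP alone (a blue fluorescent protein, the control vector) or ISL1 joined to BFP, and BFP-positive cells were sorted on day 18. Each genotype had both vectors, which makes 8 groups and 21 libraries. There are 2 libraries for either vector in WT and for ISL1 in PDX1-/-, and 3 in each of the other groups. The series calls them biological replicates, while the number of clones per genotype is not given in the sources used here.

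Ghrelin is made as a longer precursor, and a prohormone convertase cuts out the mature peptide. MBOAT4, also called ghrelin O-acyltransferase or GOAT, places a medium-chain fatty acid on a serine near the start of the peptide, and this acyl form is the one that activates the ghrelin receptor GHSR. In the adult body most ghrelin comes from the stomach, while in the pancreas epsilon cells are mainly a fetal cell type. In mice that lack Pax6, ghrelin-positive cells of the pancreas are known to be increased.

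The peptide itself links both protein-coding members, since GHRL encodes it and the MBOAT4 enzyme modifies it. The coding bases of mature ghrelin lie on chromosome 3, minus strand, assembly GRCh38, in 2 coding blocks, the first at 10290073 to 10290111. The forms below are from GENCODE release 29, written 5′ to 3′. They are shown because the acylated serine is in them and because the annotated transcripts give 2 versions of the peptide. Capitals mark AGC, the codon of the serine that MBOAT4 modifies (codon 3 of the mature peptide, codon 26 of the precursor), and CAG, the codon 14 that only the longer version has.
GHRL-202: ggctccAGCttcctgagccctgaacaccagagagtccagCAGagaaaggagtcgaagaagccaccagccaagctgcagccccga
GHRL-201: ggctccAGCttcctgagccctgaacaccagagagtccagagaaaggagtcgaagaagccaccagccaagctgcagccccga
GHRL-202 has 28 codons in the mature peptide and a second block at 10289834 to 10289878, while GHRL-201 has 27 codons and a second block that ends at 10289875. The counts were made per gene, so the values below do not separate these forms.

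GHRL (ENSG00000157017.16) lies on chromosome 3 from 10285666 to 10292947 on the minus strand, with 2073 bases of exon. GHRLOS (ENSG00000240288.8) runs from 10285754 to 10294903 on the plus strand, with 3166 bases of exon. MBOAT4 (ENSG00000177669.4) lies on chromosome 8 from 30131671 to 30144665 on the minus strand, with 1644 bases of exon. GHRL and GHRLOS share 288 exon bases, which is 13.9% of GHRL and 9.10% of GHRLOS. GHRLOS also shares 206 exon bases with SEC13, a gene of the opposite strand that had 9058 to 25910 counts per library. MBOAT4 shares 323 bases, or 19.6% of its exon, with LEPROTL1 on the opposite strand, which had 4019 to 9126 counts. No source used here says that strand was used in counting, so in these stretches reads of the overlapping genes cannot be told apart. GHRL and GHRLOS overlap over most of GHRL, introns included, and reads from unspliced RNA were not examined. Low counts of GHRLOS and MBOAT4 are uncertain at least to that extent.

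Total counts per library were from 36.8 to 60.2 M, with a median of 50.4 M. Levels are given as CPM, counts scaled per M of the library size, and differences as log2 fold changes with their standard error (SE). Mitochondrial genes took 1.28% to 1.93% of the counts in 19 libraries, 3.16% in PAX6-/- with ISL1 replicate 3 (95% Wilson interval 3.16 to 3.17) and 3.84% in PDX1-/- with ISL1 replicate 4 (3.84 to 3.85). These 2 libraries stand apart, and many of the results that rest on them are also given without them. The labels of the targeted genes were checked against their own counts. ISL1 was lower in ISL1-/- with BFP than in WT with BFP, at 76.9 against 413 CPM (log2 change -2.42, adjusted p = 0.00127 by edgeR's quasi-likelihood test). PAX6 had 136 CPM in PAX6-/- with BFP against 186 in WT (adjusted p = 0.672), and PDX1 had 111 CPM in PDX1-/- against 90.9 (adjusted p = 0.541). The counts of PAX6 and PDX1 do not show those knockouts. ISL1 was also lower in PDX1-/- with BFP, at 153 CPM (-1.43, adjusted p = 0.0254). ISL1 was not called in any of the 4 comparisons of the vectors, so genotype and vector are used here as labelled. General endocrine genes were present throughout, led by CHGA with 21886 CPM in WT with BFP and 21423 in PAX6-/- with BFP.

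GHRL, the hormone gene, was far higher in the PAX6-/- libraries than in all others. With BFP it had 3481, 2519 and 3773 CPM in PAX6-/- replicates 1 to 3, against 74.5 and 83.6 CPM in WT replicates 1 and 3. The lowest PAX6-/- library lies above the highest library of any other genotype, which had 276 CPM. The group means were 3258 ± 656 CPM (SD, n = 3) and 79.1 ± 6.43 CPM (SD, n = 2). The log2 difference was 5.36 (SE 0.75), a 41.2-fold rise, with an adjusted p of 0.000627 by edgeR's quasi-likelihood test. Across all genes tested, 2.25% were called higher in this comparison, and all 3 members were among them. In bulk libraries such as these, more cells of a type and more RNA per cell cannot be told apart.

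MBOAT4, the acyltransferase gene, rose as well, by less and from a lower level. It had 11.8, 6.71 and 10.4 CPM in the 3 PAX6-/- libraries with BFP, against 3.38 and 2.81 CPM in WT. No PAX6-/- library overlapped WT. The means were 9.63 ± 2.63 CPM (SD, n = 3) and 3.10 ± 0.405 CPM (SD, n = 2). The log2 difference was 1.63 (SE 0.37, adjusted p = 0.0149), or 3.10-fold. Leaving out 1 library could end this call: the adjusted p was 0.0633 without PAX6-/- replicate 1, 0.0505 without PAX6-/- replicate 3, 0.119 without WT replicate 1 and 0.177 without WT replicate 3.

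GHRLOS, the antisense gene, rested on few counts. In PAX6-/- with BFP it had 70, 95 and 73 counts, or 1.45, 1.70 and 1.38 CPM, against 20 and 7 counts, or 0.440 and 0.212 CPM, in WT. GHRL had 141068 to 199466 counts in these PAX6-/- libraries, and the part of its reads in the GHRLOS counts was not tested. The GHRLOS groups did not overlap. The log2 difference was 2.18 (SE 0.58, adjusted p = 0.0361), or 4.53-fold, and the adjusted p was between 0.0760 and 0.325 when any of the 5 libraries compared was left out.

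**Figure D1:**
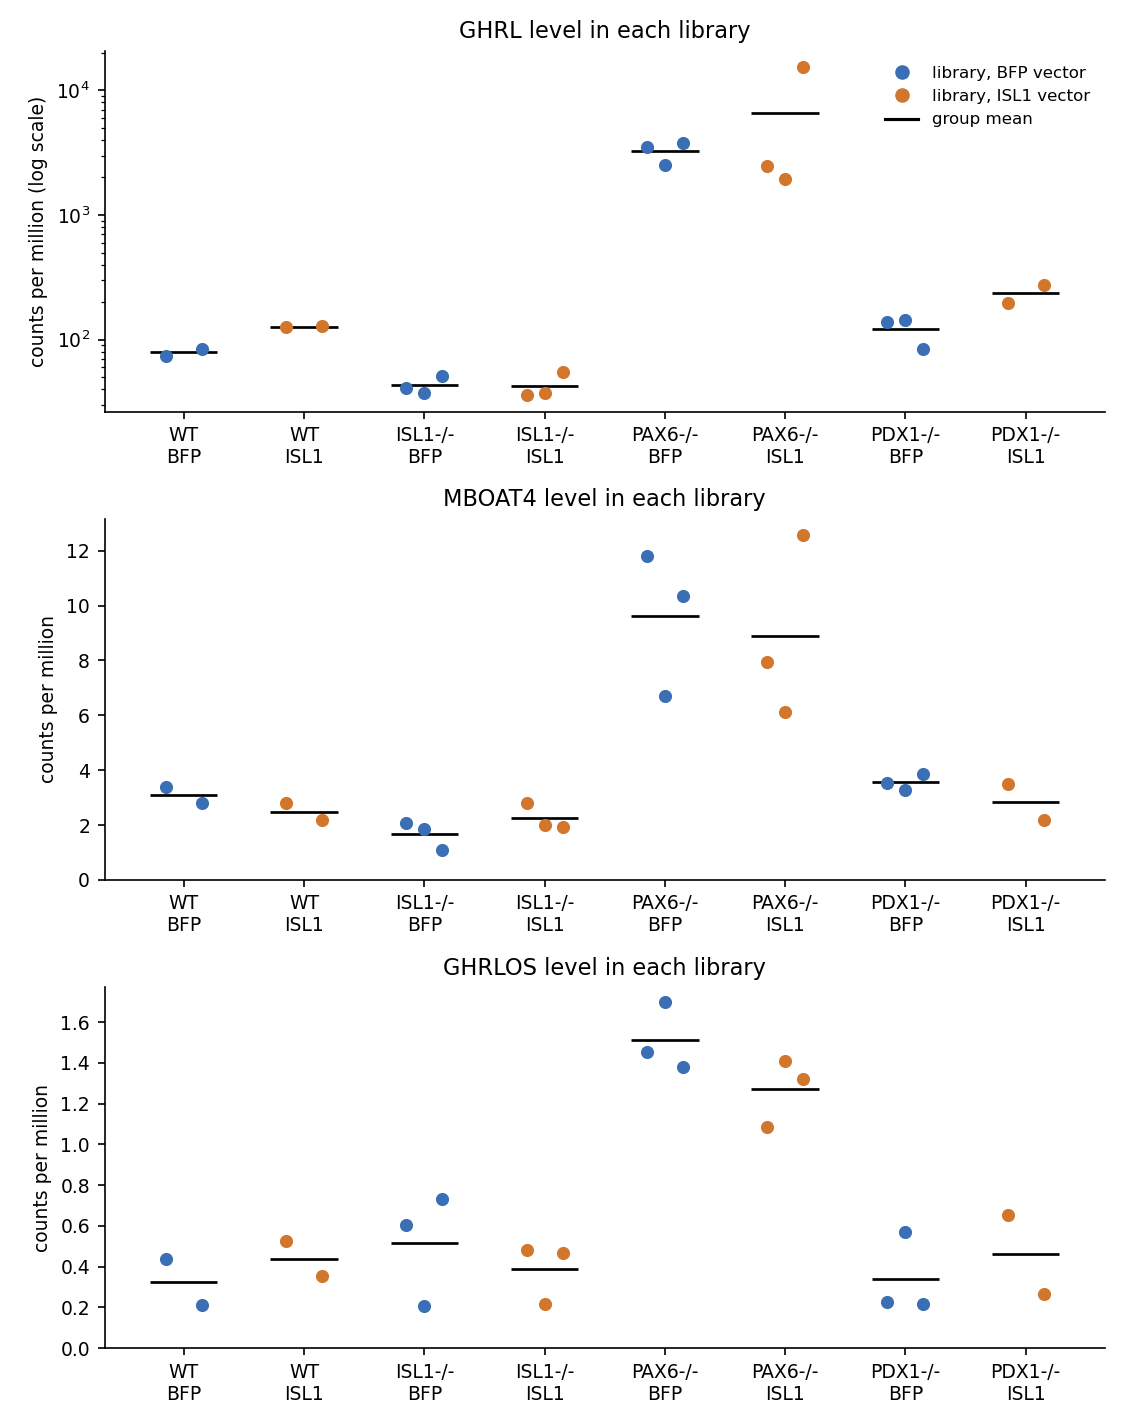
Levels of GHRL (log axis), MBOAT4 and GHRLOS in CPM for each of the 21 libraries, by genotype and vector, with black lines for the group means. All 6 PAX6-/- libraries lie above all 15 others for each gene, and PAX6-/- with ISL1 replicate 3 has the highest GHRL level, 15335 CPM.

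The ISL1-vector libraries give the same contrast between groups whose means the BFP comparison does not use. Both comparisons take their SE from 1 model over all libraries. Same-numbered PAX6-/- libraries of both vectors also deviate together (r from 0.155 to 0.391), so the comparisons are not separate evidence. In PAX6-/- with ISL1, GHRL had 2481, 1933 and 15335 CPM in replicates 1 to 3, against 126 and 129 CPM in WT with ISL1. Every PAX6-/- library was above both WT libraries, and replicate 3 was far above its own group. The log2 difference was 5.69 (SE 0.76, adjusted p = 0.000457). Without replicate 3 it was 4.11 (adjusted p = 6.85e-06), and when only these groups entered the fit it was 5.69 with an adjusted p of 0.148. MBOAT4 had 7.95, 6.12 and 12.6 CPM against 2.81 and 2.17 CPM, a log2 difference of 1.83 (SE 0.37, adjusted p = 0.00894). That call was lost with only these groups in the fit (adjusted p = 0.194), without WT replicate 1 (0.0881) and without WT replicate 2 (0.168). GHRLOS had 56, 91 and 63 counts against 25 and 17, and its log2 difference of 1.53 missed the threshold (adjusted p = 0.153). Of the 3 members 2 were called higher, where 1.26% of all genes were, and the median log2 difference of all genes was 0.13.

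Setting PAX6-/- against the other knockouts with BFP takes no WT library into the difference itself, although WT libraries enter the shared SE. Against ISL1-/-, GHRL was 75.8-fold higher (log2 6.24, SE 0.65, adjusted p = 2.88e-05) and MBOAT4 5.74-fold higher (log2 2.52, SE 0.33, adjusted p = 0.00022). GHRLOS differed by 1.55 with an adjusted p of 0.116, and 1.7% of all genes were called higher. Against PDX1-/-, GHRL was 26.7-fold higher (log2 4.74, adjusted p = 0.000239), MBOAT4 differed by 1.43 (adjusted p = 0.0158) and GHRLOS by 2.13 (adjusted p = 0.0221), where 1.52% of all genes were called higher. All of these comparisons share the PAX6-/- libraries with BFP, so they are not separate evidence on that group. The MBOAT4 call against PDX1-/- was lost when PAX6-/- replicate 1 or 3, or any PDX1-/- library, was left out, with adjusted p from 0.0550 to 0.0926. The GHRLOS call there was lost without PAX6-/- replicate 1 or 2 or PDX1-/- replicate 1 or 3 (0.0561 to 0.131).

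ISL1-/- stood at the other end of the order. GHRL had 40.9, 37.3 and 50.8 CPM in ISL1-/- with BFP and 35.8, 37.3 and 55.0 CPM in ISL1-/- with ISL1. All 6 libraries lie below the lowest library of the other genotypes, 74.5 CPM. Against WT with BFP the log2 difference was -0.88 (SE 0.58, adjusted p = 0.448), so it was not called. It was called without PAX6-/- with ISL1 replicate 3, where the difference was -0.88 with an SE of 0.26 and an adjusted p of 0.0422. With both libraries of high mitochondrial share left out, it was -0.86 (adjusted p = 0.00953), and then 23.5% of all genes were called. With the ISL1 vector, ISL1-/- differed from WT by -1.58 (SE 0.58, adjusted p = 0.149), and by -1.58 (SE 0.26, adjusted p = 0.0015) without that replicate 3. That library is in neither group compared, so leaving it out could change the SE but hardly the difference itself.

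MBOAT4 in ISL1-/- with BFP had 2.07, 1.85 and 1.10 CPM, all below both WT libraries. The log2 difference of -0.89 (SE 0.35) had an adjusted p of 0.158, and of 0.0348 without both libraries of high mitochondrial share. In ISL1-/- with ISL1 it had 2.80, 2.01 and 1.93 CPM, which overlaps WT with ISL1 (difference -0.15, adjusted p = 0.907). GHRLOS had 34, 12 and 47 counts with BFP and 26, 13 and 26 with ISL1, within the range of WT and PDX1-/- apart from the 47. By edgeR none of the 3 members was called between ISL1-/- and WT with BFP, where 5.59% of all genes were. At an unadjusted p under 0.05 there was 1 (MBOAT4), by DESeq2 there was none and by limma voom with sample weights 2. With the ISL1 vector none was called either, against 3.72% of all genes, with 1 (GHRL) at an unadjusted p under 0.05, none by DESeq2 and 1 by limma voom. The percentages of all genes are those of edgeR. The shares by the other rules are not given and can be far larger, so counts by those rules are a description throughout.

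PDX1-/- resembled WT more closely in these genes. GHRL had 137, 145 and 83.4 CPM in PDX1-/- with BFP, and the lowest of these lies within the WT range of 74.5 to 83.6 CPM. The difference was 0.62 (SE 0.59, adjusted p = 0.621). MBOAT4 had 3.53, 3.29 and 3.87 CPM (difference 0.20, adjusted p = 0.824), and GHRLOS had 11, 32 and 10 counts (difference 0.05, adjusted p = 0.978). None of the 3 members was called by edgeR, against 9.68% of all genes, and none at an unadjusted p under 0.05, by DESeq2 or by limma voom. PDX1-/- with ISL1 against WT with ISL1 gave the same counts of members, against 0.634% of all genes, with GHRL at 198 and 276 CPM and a difference of 0.89 (SE 0.64, adjusted p = 0.474).

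Between ISL1-/- and PDX1-/- with BFP, GHRL did not overlap and differed by -1.50 (SE 0.53, adjusted p = 0.121). MBOAT4 did not overlap either and differed by -1.09 (SE 0.32, adjusted p = 0.055). None of the members was called by edgeR, against 5.07% of all genes, while 2 had an unadjusted p under 0.05 and 2 were called by DESeq2 and by limma voom. Without PAX6-/- with ISL1 replicate 3 both were called, with adjusted p of 0.000899 for GHRL and 0.0212 for MBOAT4.

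The order of the groups by GHRL ran from PAX6-/- with ISL1 and PAX6-/- with BFP, which overlap each other, to PDX1-/- with ISL1, then WT with ISL1, PDX1-/- with BFP and WT with BFP, and last both ISL1-/- groups. PDX1-/- with BFP overlaps both WT groups, its neighbours in that order, and the ISL1-/- groups overlap each other, while the remaining neighbours do not overlap. For MBOAT4 each neighbouring pair of groups in the order overlaps, except PAX6-/- with ISL1 (6.12 CPM at its lowest) and PDX1-/- with BFP (3.87 CPM at its highest). For GHRLOS the only gap in the order is that between PAX6-/- with ISL1 (1.09 CPM at its lowest) and ISL1-/- with BFP (0.731 CPM at its highest).

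**Figure D2:**
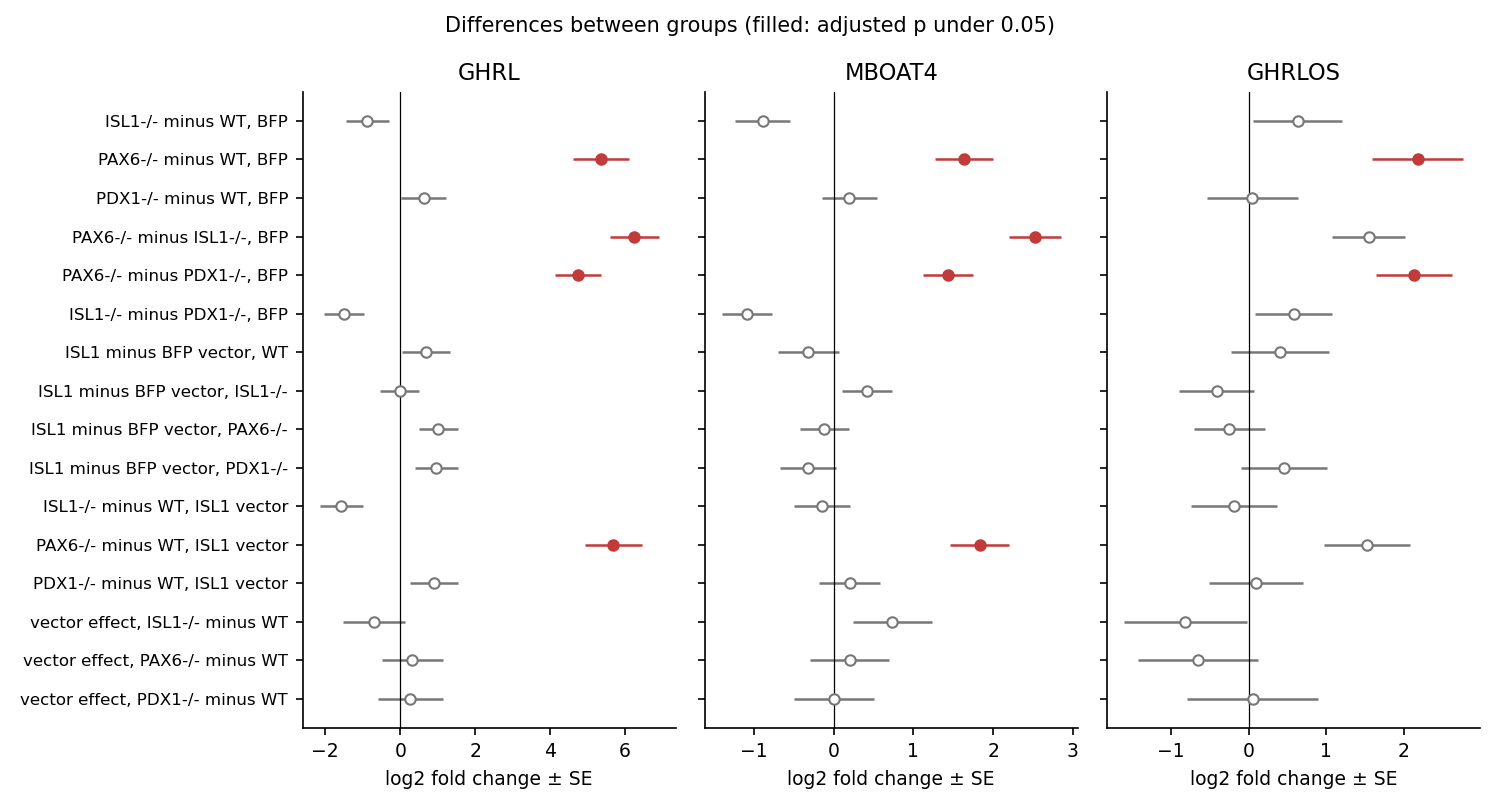
Log2 fold changes with standard errors of GHRL, MBOAT4 and GHRLOS in the 16 comparisons, with filled points for an adjusted p under 0.05. Filled points appear only in comparisons of PAX6-/- with another genotype, from 1.43 (MBOAT4, PAX6-/- minus PDX1-/-) to 6.24 (GHRL, PAX6-/- minus ISL1-/-).

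The ISL1 vector was set against BFP in each genotype, and no member was called for it in any of the 4. In WT, GHRL had 126 and 129 CPM with ISL1 against 74.5 and 83.6 CPM with BFP. These do not overlap, and the log2 difference of 0.69 (SE 0.64) had an adjusted p of 1, or 0.04 with only these groups in the fit. In PDX1-/-, GHRL had 198 and 276 CPM with ISL1 against 83.4 to 145 CPM with BFP, again without overlap (0.96, SE 0.57, adjusted p = 0.269). That value was 0.96 with an adjusted p of 0.0162 without PAX6-/- with ISL1 replicate 3. It was not called in any other of the 29 settings, which gave 0.71 to 1.17. The 276 CPM came from replicate 4, the library with the highest mitochondrial share. With so few libraries per group, a lack of overlap can arise by chance, in WT as in PDX1-/-. The share of all genes without overlap was not counted, so the separation of GHRL is only a description. In ISL1-/- the vector groups overlapped, with a difference of -0.01 (SE 0.52, adjusted p = 1).

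In PAX6-/- the vector comparison of GHRL turned on 1 library. The difference was 1.01 (SE 0.53, adjusted p = 0.517) with all libraries and -0.56 (SE 0.27, adjusted p = 0.482) without replicate 3 of PAX6-/- with ISL1. Replicates 1 and 2 with ISL1, at 2481 and 1933 CPM, are both below all 3 libraries with BFP. Same-numbered libraries of this genotype deviate together, and with the replicate number as a block the difference was 0.74 (adjusted p = 0.431) by the numbers in the descriptions and 0.70 (adjusted p = 0.604) by those in the titles. MBOAT4 differed by 0.42 in ISL1-/-, -0.12 in PAX6-/-, -0.31 in PDX1-/- and -0.32 in WT, and GHRLOS by -0.41, -0.25, 0.46 and 0.40 in the same order, all with overlapping libraries. By edgeR none of the members passed, against 0.027% of all genes for WT, 0.382% for ISL1-/-, 0.355% for PAX6-/- and 12.5% for PDX1-/-. None had an unadjusted p under 0.05, and none was called by DESeq2 or limma voom. The vector effect in a knockout minus that in WT was also not called for any member, by edgeR, at an unadjusted p under 0.05, by DESeq2 or by limma voom. For GHRL it was -0.70 in ISL1-/-, 0.33 in PAX6-/- and 0.27 in PDX1-/-, with SE from 0.82 to 0.86. Of all genes, 0.00386%, 0% and 1.19% were called in those comparisons.

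PAX6-/- with ISL1 replicate 3 held 731163 counts of GHRL, against 127915 and 124961 in replicates 1 and 2. Its GHRL level was 6.95 times the mean of those libraries, MBOAT4 1.79 times and GHRLOS 1.06 times. Other hormone genes were also higher there, with GCG at 11.3 times, SST at 9.75 times, NPY at 8.21 times, PYY at 7.16 times and INS at 3.34 times. The vesicle protein gene CHGA was at 2.53 times and the neighbouring gene SEC13 at 2.94 times. Of the 14 epsilon markers listed, 11 were higher there and 3 lower, from 0.233 times (COL22A1) to 3.36 times (SPTSSB), with ACSL1 at 0.893 times. The share of all genes higher there was not counted, so this count only describes 1 library. Genes of other lists went both ways, with KRT19 at 2.83 times and SOX9 at 0.182 times. The mitochondrial share of this library was above that of 19 libraries, and the part of that in these levels was not tested. PDX1-/- with ISL1 replicate 4, with the highest mitochondrial share, had 276 CPM of GHRL against 198 in replicate 2 and 2.19 CPM of MBOAT4 against 3.51.

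Set against exon length, the balance between hormone and enzyme differed between PAX6-/- and the other libraries. GHRL per kb of exon was 234 to 298 times MBOAT4 per kb in PAX6-/- with BFP, and 247, 250 and 966 times in PAX6-/- with ISL1 replicates 1 to 3. In the other 15 libraries the ratio was from 10.1 to 99.6, with a median of 23.6. The 2 ranges do not overlap. GHRLOS took 0.00862% to 0.0728% of the GHRL count in PAX6-/- libraries and 0.0968% to 1.47% in the others.

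**Figure D3:**
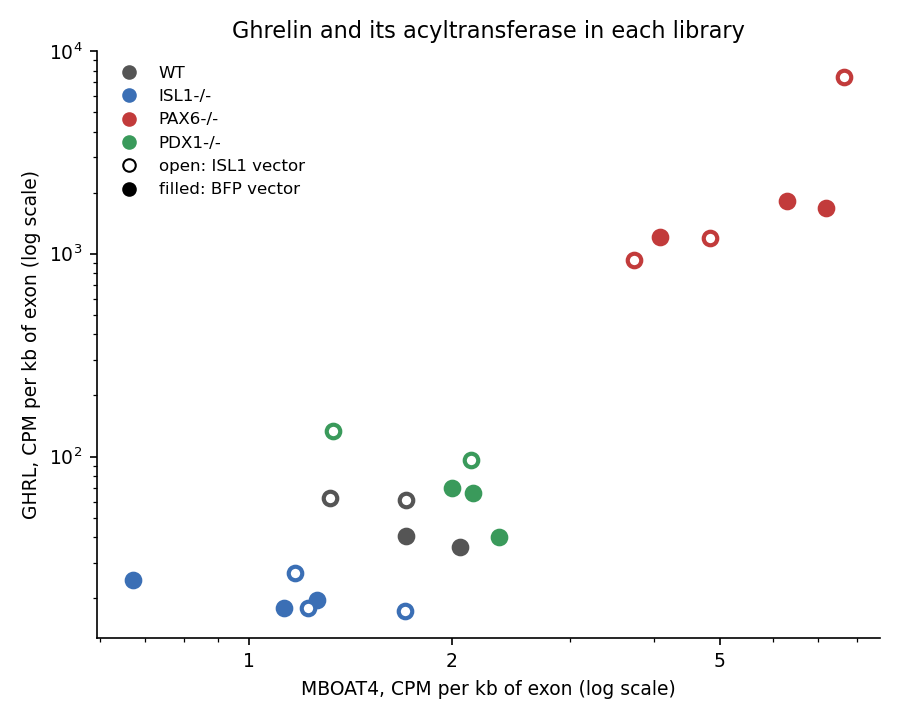
GHRL against MBOAT4 in each of the 21 libraries, both in CPM per kb of exon on log axes, coloured by genotype, with open points for the ISL1 vector. The 6 PAX6-/- libraries form a separate set at the upper right, and the open point at the top is PAX6-/- with ISL1 replicate 3.

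GHRL and INS were the most abundant hormone genes of PAX6-/- cells by exon length. Among GHRL and 14 other peptide hormone genes, ranked by mean CPM per kb of exon, GHRL was first in PAX6-/- with BFP at 1571 CPM per kb, ahead of INS at 1208, and held 52.9% of the sum of the 15. Among all genes it was rank 5 on that scale. By library, GHRL and INS had 1679 and 1430, 1215 and 1224, and 1820 and 970 CPM per kb in replicates 1 to 3 with BFP, so GHRL was not above INS in replicate 2. With the ISL1 vector they had 1197 and 1066, 932 and 1479, and 7397 and 4248 CPM per kb. The mean of GHRL there was 3175.5 with all libraries, above INS at 2264, but 1065 against 1273 for INS without replicate 3. GHRL was thus above INS on this scale in 4 of 6 PAX6-/- libraries. That order depends on dividing by exon length, which is 2073 bases for GHRL. Without length, GHRL had 2519 to 3773 CPM in PAX6-/- with BFP, above the INS range given below. With ISL1, GHRL and INS had 15335 and 2787 CPM in replicate 3, and means of 2207 and 835 CPM in replicates 1 and 2. In WT with BFP it was rank 10 of 15, at 38.2 CPM per kb or 0.130% of the sum, where GCG had 18411 CPM per kb and INS 9784. In ISL1-/- with BFP it was rank 6, with INS first, and in PDX1-/- with BFP rank 3, after GCG and INS. By CPM without length, GHRL ranked from 3 to 10 among all genes in the 6 PAX6-/- libraries and from 857 to 6445 in the others.

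Over the same comparison, PAX6-/- minus WT with BFP, 8 of the 14 other hormone genes fell and none rose (10 lower and none higher at an unadjusted p under 0.05, 7 and none by DESeq2, 10 and 1 by limma voom). The glucagon gene GCG had 36245 and 51317 CPM in WT and 15.7 to 77.9 CPM in PAX6-/-, a log2 change of -10.06 (adjusted p = 0.000151). The falls in PYY (-7.78), GIP (-6.99) and CCK (-6.06), which encode gut peptides, followed in size among genes of at least 10 CPM. The insulin gene INS had 637 to 938 CPM against 5651 and 7185 CPM, and its difference of -3.02 missed the threshold (adjusted p = 0.081), but not without the libraries of high mitochondrial share (-3.03, adjusted p = 4.99e-07). Of all genes 2.25% were called higher and 3.26% lower by edgeR in this comparison. These shares apply to the edgeR counts of the lists in PAX6-/- below as well, but not to counts by other rules. The median log2 change of the 14 was -3.49, where that of all genes was 0.03.

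**Figure D4:**
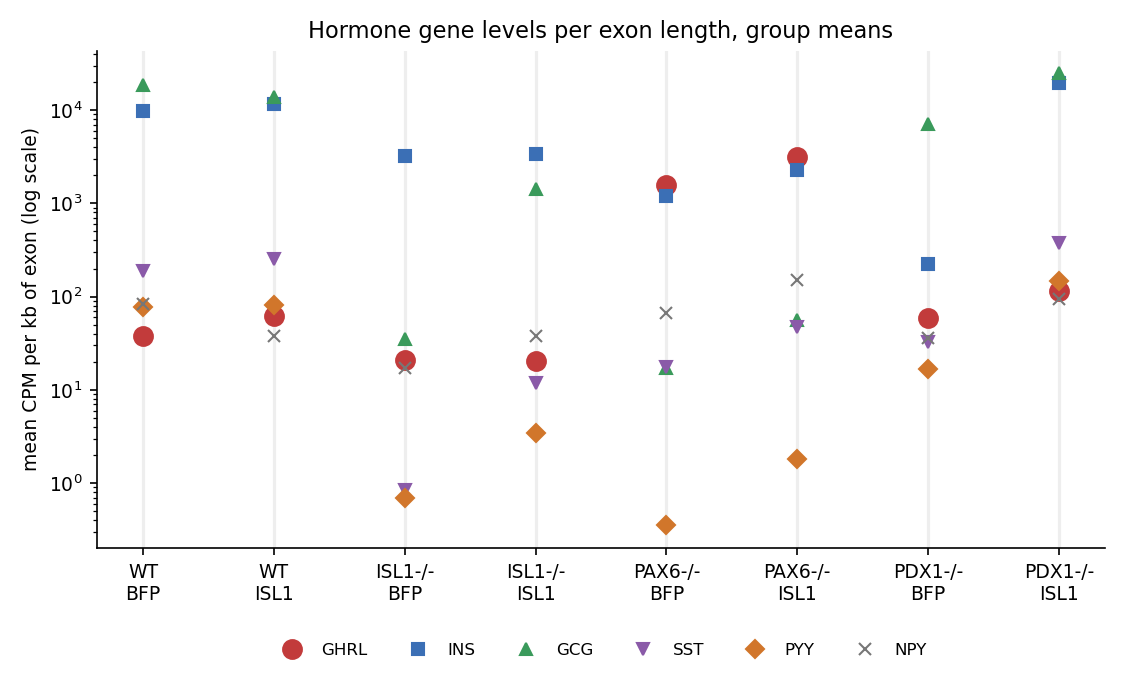
Group means of 6 hormone genes in CPM per kb of exon (log axis) in the 8 genotype and vector groups. GHRL, the large circle, has means of 1571 and 3175.5 CPM per kb in the PAX6-/- groups, above INS. It is below INS in every other group. Without replicate 3 of PAX6-/- with ISL1 its mean there is 1065, below INS at 1273 on this per-length scale.

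The genes that process the precursor did not follow GHRL as a group. Of 6 such genes none rose and 1 fell in PAX6-/- with BFP, with 1 higher and 1 lower at an unadjusted p under 0.05 and by limma voom. PCSK1, the convertase that cuts proghrelin, had 260, 148 and 224 CPM in PAX6-/- against 67.3 and 89.0 CPM in WT. All 3 PAX6-/- libraries lie above WT, with a difference of 1.43 and an adjusted p of 0.135, or 0.000135 without the libraries of high mitochondrial share. SCG5, a chaperone of the convertase PCSK2, fell by 2.37 on the log2 scale (adjusted p = 0.0167), from 6.07 to 1.17 CPM. PCSK2 itself was at 261 against 264 CPM, CPE, which trims the cut peptides, at 954 against 1273, and FURIN at 117 against 104. PCSK1N, an inhibitor of PCSK1, was at 663 against 644 CPM.

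In PDX1-/- with BFP, PCSK1 rose (log2 1.98, adjusted p = 0.0279, 308 against 78.2 CPM) where GHRL did not pass, and PCSK2 fell (-0.76, adjusted p = 0.0424). With the ISL1 vector PDX1-/- had PCSK1 at 133 and 18.6 CPM in replicates 2 and 4, below all 3 libraries with BFP (290 to 324 CPM). The fall was -2.02 (adjusted p = 0.0238), and -1.19 (adjusted p = 0.0121) without the libraries that stand apart, of which replicate 4 is one. The rise of SCG5 there (1.94, adjusted p = 0.0258) was 0.03 (adjusted p = 0.978) without them. In ISL1-/- with BFP, CPE fell from 1273 to 363 CPM (-1.81, adjusted p = 0.00122) and SCG5 fell (-2.08, adjusted p = 0.0295).

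The enzymes that can remove the acyl group, LYPLA1 (acyl-protein thioesterase) and BCHE (butyrylcholinesterase), were not called in PAX6-/- by edgeR. Their differences were -0.49 (adjusted p = 0.112) and -0.57 (adjusted p = 0.456). At an unadjusted p under 0.05, by DESeq2 and by limma voom, 1 of the 2 was lower, and LYPLA1 was called without the libraries of high mitochondrial share (adjusted p = 0.00383).

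The ghrelin receptor gene GHSR was close to absent in these cells. It had a mean of 0.166 CPM in PAX6-/- and 0.0659 CPM in WT with BFP. Of the 4 genes of the receptor system 1 fell and none rose: MRAP2, an accessory protein of GHSR, was at 1.01 against 3.19 CPM (log2 -1.65, adjusted p = 0.00779). LEAP2, a peptide that antagonises GHSR, was at 1.78 against 5.14 CPM (-1.53, adjusted p = 0.116), and GPR39, a relative of GHSR, at 4.07 against 9.33 CPM (-1.20, adjusted p = 0.119). Without the libraries of high mitochondrial share both were called lower by edgeR, with adjusted p of 0.000929 for LEAP2 and 0.000766 for GPR39. Of the 4 genes 3 then fell, where 11.9% of all genes did. LEAP2 fell in PDX1-/- with BFP (-2.79, adjusted p = 0.00445, 0.742 CPM) and rose there with the ISL1 vector (3.20, adjusted p = 0.00231), a rise that was 0.95 (adjusted p = 0.138) without the libraries that stand apart.

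Among 13 tested genes for receptors reported to act on ghrelin release, 1 rose and 1 fell in PAX6-/-. FFAR4, a receptor for long-chain fatty acids, rose from 3.15 to 13.7 CPM (log2 2.12, adjusted p = 0.0393). CASR, the calcium-sensing receptor, fell from 135 to 3.22 CPM (-5.39, adjusted p = 0.000143). Neither overlapped between the groups. In ISL1-/- both fell, FFAR4 by 3.82 to 0.218 CPM (adjusted p = 0.00105) and CASR by 2.50 to 23.8 CPM (adjusted p = 0.016). In PDX1-/- CASR fell by 5.17 (adjusted p = 0.000207), and ADRB1, the beta-1 adrenergic receptor, rose from 0.962 to 15.7 CPM (log2 4.02, adjusted p = 0.000234). Without the libraries of high mitochondrial share, 4 of the 13 rose and 2 fell in PAX6-/-, where 11.7% and 11.9% of all genes did.

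Genes listed as markers of human epsilon cells other than GHRL did not rise together. Of 14, 1 rose and 3 fell in PAX6-/- with BFP, and their median log2 change was -0.51. ACSL1, a ligase that activates long-chain fatty acids, had 899, 552 and 850 CPM against 113 and 124 CPM in WT. The groups do not overlap, and the log2 change was 2.7 (SE 0.58, adjusted p = 0.0121). SERPINA1 fell by 1.63 (adjusted p = 0.0161), VTN by 1.49 (adjusted p = 0.0307) and TM4SF5 by 2.32 (adjusted p = 0.0444). SERPINA1 and VTN encode secreted plasma proteins that liver cells also make. The summed level of the 14 was 1126 to 1562 CPM in PAX6-/- and 1252 to 1430 CPM in WT with BFP, so the groups overlap. Without the libraries of high mitochondrial share, 3 rose and 6 fell, where 11.7% and 11.9% of all genes did. In ISL1-/- with BFP 1 of the 14 rose and 3 fell, and in PDX1-/- 1 rose and 4 fell. Of all genes 1.67% rose and 3.92% fell in ISL1-/-, and 4.03% and 5.65% in PDX1-/-. With the ISL1 vector, FRZB, a secreted WNT antagonist, rose in ISL1-/- (2.98, adjusted p = 0.0032), in PAX6-/- (1.94, adjusted p = 0.0444) and in PDX1-/- (4.06, adjusted p = 9.18e-05). Without the libraries that stand apart these were 2.94, 1.56 and 4.36, all called. No other of the 14 was called for the vector in ISL1-/- or PAX6-/- by edgeR with all libraries, while 5 rose in PDX1-/-. Of all genes 0.251%, 0.17% and 8.19% rose for the vector in ISL1-/-, PAX6-/- and PDX1-/-. Without the libraries that stand apart, 2 rose and 3 fell in ISL1-/-, 1 rose and 4 fell in PAX6-/-. In PDX1-/- the difference then rests on 1 library with ISL1. Of all genes 1.91% rose and 3.02% fell in ISL1-/-, and 1.33% and 3.65% in PAX6-/-. In WT none was called with all libraries, and 4 were called lower without those that stand apart (ANXA13, ASGR1, BHMT and VTN, from -2.15 to -0.75). Of all genes 0.623% were called lower there.

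Of 20 endocrine lineage factors, 4 rose and 1 fell in PAX6-/- with BFP. NEUROG3, the factor that starts endocrine differentiation, had 1124, 752 and 1274 CPM against 117 and 178 CPM in WT. All 3 lie above both WT libraries, and the log2 change was 2.83 (SE 0.39, adjusted p = 0.000467). NKX2-2 rose by 1.95 (adjusted p = 0.0187), ST18 by 1.49 (adjusted p = 0.00969) and PAX4, which acts in beta and delta cell fate, by 1.13 (adjusted p = 0.0355). ETV1 fell by 1.32 (adjusted p = 0.00501). Without the libraries of high mitochondrial share 9 rose and 2 fell, where 11.7% and 11.9% of all genes did. NEUROG3 was higher in the ISL1-vector libraries too, with 663, 584 and 1338 CPM in PAX6-/- against 128 and 102 CPM in WT (2.90, adjusted p = 0.000425). That change includes replicate 3, which stands apart and was at 2.15 times the mean of replicates 1 and 2. Replicates 1 and 2, with a mean of 624 CPM, also lie above both WT libraries.

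**Figure D5:**
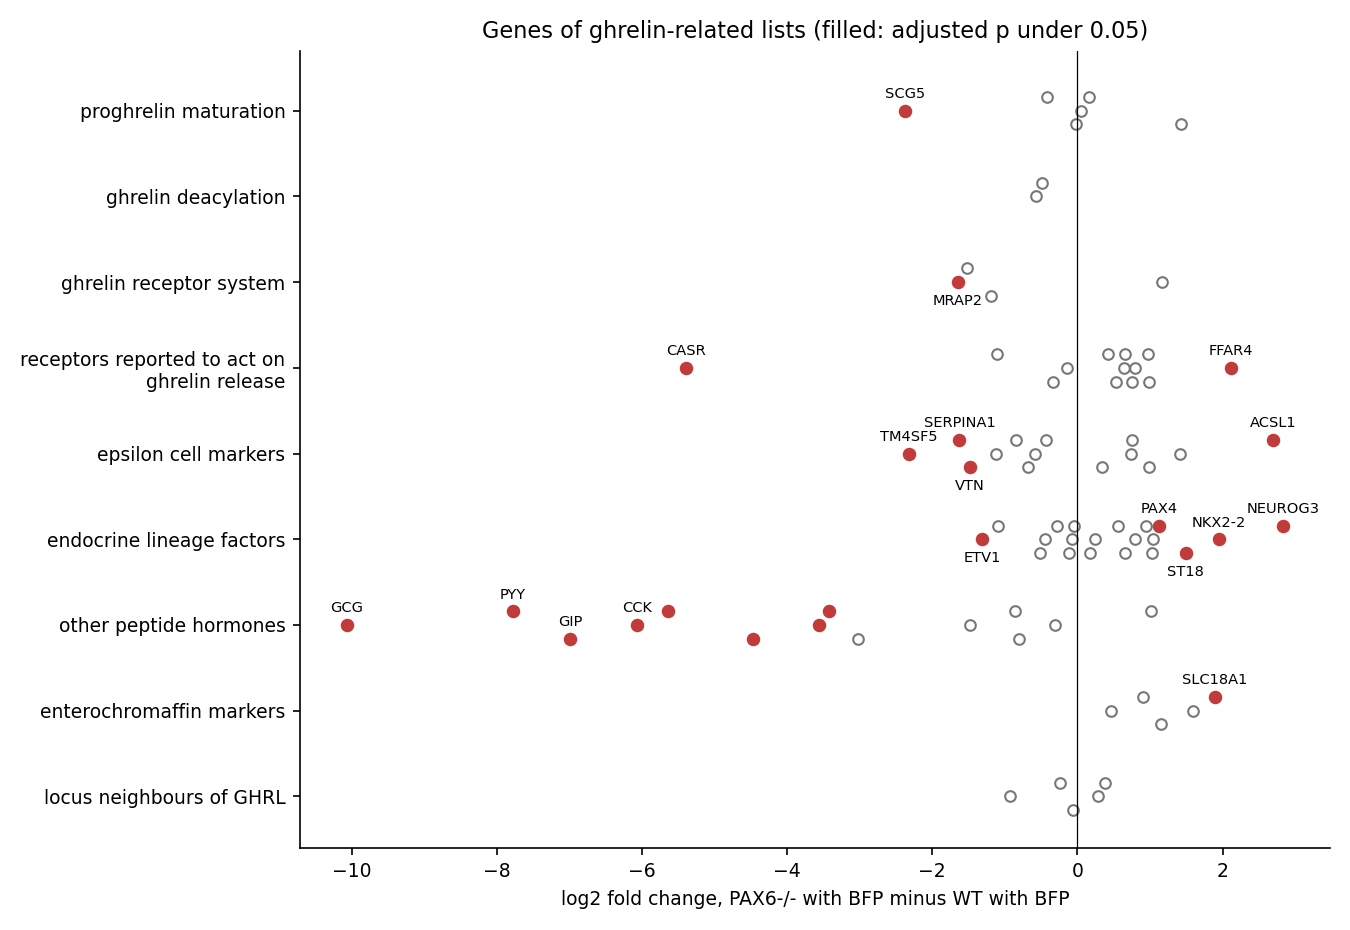
Log2 fold changes, PAX6-/- with BFP minus WT with BFP, for genes of 9 lists around ghrelin, with filled points for an adjusted p under 0.05 and names on the called genes (for the hormones, on the 4 largest falls). Falls reach -10.06 in GCG, and the rises of NEUROG3 and ACSL1, at 2.83 and 2.7, are the largest among these genes.

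Markers of other cell types moved alongside. Of 5 enterochromaffin markers, genes of serotonin-making cells, 1 rose in PAX6-/- with BFP (SLC18A1, log2 1.89, adjusted p = 0.0322), with 5 at an unadjusted p under 0.05, and their summed level was 883 to 1282 CPM against 557 to 643 CPM in WT. The sum was higher still in PDX1-/- with BFP, at 2410.5 to 2641.5 CPM, where GHRL was not called. Liver markers fell for 4 of 5, from a sum of 14457 to 16258 CPM in WT to 4843 to 6707 CPM in PAX6-/-. Beta markers fell for 3 of 5, with G6PC2 at 0 in all 3 PAX6-/- libraries with BFP and at a mean of 95.6 CPM in WT. Delta markers fell for 3 of 4 and alpha markers for 1 of 5. Mesenchyme markers were not called, at a sum of 176 to 895 CPM in PAX6-/- and 209 to 1219 CPM in WT (none by DESeq2, by limma voom or at an unadjusted p under 0.05). Acinar and ductal markers fell for 1 of 9, with sums of 1425 to 1807 CPM against 1417 to 1426 CPM. Of 7 general endocrine markers none was called by edgeR or DESeq2, with 1 higher and 1 lower at an unadjusted p under 0.05 and 2 higher and 1 lower by limma voom. Their sum was 16296 to 28234 CPM in PAX6-/- and 21424 to 26047 CPM in WT. The part of these other cell types in the levels of the ghrelin genes was not tested.

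Around GHRL itself the neighbours did not move with it. Of 5 neighbouring genes none was called in PAX6-/- with BFP by edgeR or DESeq2, with 1 lower at an unadjusted p under 0.05 and 1 by limma voom. SEC13 was at 221 against 262 CPM (-0.24, adjusted p = 0.833), TATDN2 at 8.65 against 6.64, VHL at 25.8 against 21.1 and IRAK2 at 8.15 against 15.5. LINC00852, which overlaps the 3′ end of GHRL by 81 exon bases on the opposite strand, was at 0.348 against 0.359 CPM (adjusted p = 0.97). The stretch between the start of GHRL and the end of SEC13 is 183 bases long and lies within an exon of GHRLOS. It is shown because GHRL, on one side of it, rose 41.2-fold and SEC13, on the other, was not called. It is at chr3:10292948-10293130, assembly GRCh38.p14, on the minus strand, from RefSeq, and no part is capitalised because none of the motifs searched occurs in it.
GHRL upstream gap: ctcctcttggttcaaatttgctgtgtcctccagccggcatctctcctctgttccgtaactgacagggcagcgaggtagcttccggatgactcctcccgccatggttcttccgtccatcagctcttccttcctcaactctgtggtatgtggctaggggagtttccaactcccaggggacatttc
The motifs were CANNTG (the E-box, its own reverse complement), TAAT (the homeodomain core, with ATTA for the other strand) and TATAAA (the TATA box, with TTTATA). In the same window of 35114 promoters, 50.8%, 38.2% and 7.93% hold them. Their absence says only that these letters are not in this window.

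The genes whose levels followed GHRL most closely were sought over the 8 group means, by Pearson's r of log2 CPM among 11982 genes with at least 10 CPM in some group. The group means share the PAX6-/- against other contrast, so r is a description. The filter also admits genes that reach 10 CPM only in PAX6-/- groups, where GHRL and MBOAT4 are high, which favours such genes in both rankings. The mean of PAX6-/- with ISL1 includes replicate 3, and no ranking was made without it. HELT, a basic helix-loop-helix transcription factor, had r = 0.991 and was first over the 21 libraries too (r = 0.974). It had 17.6 and 27.6 CPM in PAX6-/- with BFP and with ISL1 and 0.0920 CPM in WT with BFP. SV2C, a synaptic vesicle protein, followed with 0.975, then GPM6B (0.973), IQCA1 (0.963), SLC12A5, a chloride transporter (0.963), and 3 genes named by identifier, ENSG00000289522 (0.974), ENSG00000255931 (0.971) and ENSG00000261572 (0.966). At the low end were SHISA2 (-0.961), LHFPL6 (-0.959), CAT, which encodes catalase (-0.949), and CHRNA5 (-0.947). CAT had 0.943 CPM in PAX6-/- with BFP and 79.7 CPM in WT.

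For MBOAT4 the closest were SRSF12 (0.982), CEP126 (0.981), SLC12A5 (0.972), NSG2 (0.971), TVP23A (0.970), ACSL1 (0.964), GPM6B (0.960) and ENSG00000261572 (0.952). GHRL was rank 9 on that scale, with r = 0.952, and rank 3 over the 21 libraries, with r = 0.913. SLC12A5, GPM6B and ENSG00000261572 are in the lists of both genes. The lowest were LHFPL6 (-0.955), CCK (-0.952), RGS20 (-0.932) and RBM46 (-0.922). LHFPL6 was at 12.0 CPM in PAX6-/- and 14.1 CPM in WT with BFP, a difference that was not called (-0.24, adjusted p = 0.692), and GPM6B was not called either (0.61, adjusted p = 0.157).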

How the data were processed

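RNA was copied and amplified with SMART-Seq v4, per the labels' protocols, and STAR 2.7.11b, featureCounts 2.1.1 and GRCh38 are named in the submitters' processing notes. The authors deposited raw counts per gene in 1 table of 21 libraries. The annotation release, the strand setting and the handling of multi-mapping reads are not given in the sources used here. The ANK2 entry, broken over 3 lines, was left out. Libraries carry the number in their description, which differs from that in the title for 3 of them.

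Counts were tested with edgeR 4.0.16 (R 4.3.3): TMM scaling, filterByExpr by group (minimum 10, total 15), 1 quasi-likelihood model over all libraries, Benjamini-Hochberg adjustment over 25884 genes within each of 16 comparisons, and a threshold of 0.05. The common biological coefficient of variation was 0.334. Log2 CPM used a prior count of 2 and log2 fold changes one of 0.125. Alternatives were DESeq2 1.42.0, limma 3.58.1 (voom with sample quality weights), no filter, only the groups compared, replicate blocks and leaving out each library. Leaving out both libraries of high mitochondrial share was chosen after seeing the data. The fit was tested on simulated data. Replicate numbers pair libraries by the check used (every correlation of deviations above 0.1, over 3 pairs) only in the vector comparison of PAX6-/-, at 0.155 to 0.391. The vector comparison of ISL1-/- narrowly missed that cut, at 0.099 to 0.293, where other pairs reached at most 0.066. PDX1-/- minus WT with BFP, at 0.106 to 0.21, has only 2 pairs by description number and so could not meet it. Independence of the libraries elsewhere is thus not shown. P-values measure the spread between libraries that the series calls biological replicates, and intervals cover counting error only. Lack of overlap between groups is a description throughout, as the share of all genes without overlap was not counted. So are counts of members or list genes by DESeq2, limma voom or an unadjusted p, as the edgeR shares do not apply to them.

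The members and the 16 gene lists were chosen with earlier results of these data known. The text names the members, the targeted genes, all genes of the lists on maturation, deacylation, receptor system and locus, and from every other list up to 4 called genes with the largest change and at least 10 CPM in the higher group. It also names the 8 highest and 4 lowest genes by likeness. PAX4, FFAR4 in ISL1-/-, INS, G6PC2, CHGA, the epsilon markers called for the vector in WT and the genes set out for PAX6-/- with ISL1 replicate 3 fall outside that rule and were chosen after their values were seen. Sequences were read with Biopython 1.88, and figures drawn with matplotlib 3.10.9.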

Additional observations from a re-analysis of the deposited data

How the results depend on the processing

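Over 29 settings (21 leave out 1 library), the 10 called member results kept their direction throughout, with 268 values still called and 22 not. Most leave-one-out settings drop a library of neither group compared, which hardly moves the difference, so these counts do not measure stability. GHRLOS in PAX6-/- minus WT with BFP was called in 16 of the 21, and in none that dropped a library compared. GHRL in PAX6-/- minus WT with BFP was called in every setting. With only the groups compared, PAX6-/- minus WT with the ISL1 vector lost its call for GHRL (5.69) and MBOAT4 (1.83), while GHRL was called for the vector in WT (0.70). The cause was not tested. Called only under an alternative were, for ISL1-/- minus WT with BFP, GHRL (only these groups -0.88, voom -0.92, without both libraries of high mitochondrial share -0.86) and MBOAT4 (voom -0.84, without both -0.87). For PAX6-/- minus ISL1-/- it was GHRLOS (DESeq2 1.53, only these groups 1.54, voom 1.67, without both 1.52). For ISL1-/- minus PDX1-/- they were GHRL (DESeq2 -1.48, no filter -1.47, only these groups -1.44, voom -1.42, without both -1.46) and MBOAT4 (-1.07 by DESeq2, -1.03 only these groups, -1.05 by voom and without both). For ISL1-/- minus WT with ISL1 it was GHRL (no filter -1.60, only these groups -1.59, voom -1.69, without both -1.59), and for PAX6-/- minus WT with ISL1 GHRLOS (voom 1.44).

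Reversed, and never called, were GHRLOS in PDX1-/- minus WT with BFP (voom -0.23), the vector effect in PAX6-/- on GHRL (voom -0.50, without both -0.57) and in PDX1-/- on MBOAT4 (without both 0.0058). Differences of vector effects from WT also reversed: GHRL (voom -1.20, without both -1.26) and MBOAT4 (voom -0.13, without both -0.14) in PAX6-/-, and MBOAT4 in PDX1-/- (no filter -0.036, voom -0.019).

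With a replicate block, 87 of the member values were unchanged in call and direction. By description number GHRL (-1.61) and MBOAT4 (-1.08) were called for ISL1-/- minus PDX1-/- and GHRL (-1.84) for ISL1-/- minus WT with ISL1, and by title number MBOAT4 (-1.08) for ISL1-/- minus PDX1-/-. The block reversed MBOAT4 for the vector in PDX1-/- (0.19), and the differences of vector effects for GHRL in PAX6-/- (-0.32) and PDX1-/- (-0.16), GHRLOS in PDX1-/- (-0.048) and MBOAT4 in PDX1-/- (-0.0083). The block gave 3358 called genes by description and 1263 by title number in PAX6-/- minus WT with BFP.

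Leaving out 1 library gave these ranges. PAX6-/- minus WT with BFP: MBOAT4 1.46 to 1.84, GHRLOS 1.77 to 2.82. PAX6-/- minus PDX1-/-: MBOAT4 1.26 to 1.64, GHRLOS 1.90 to 2.74. PAX6-/- minus WT with ISL1: MBOAT4 1.50 to 2.04. ISL1-/- minus WT with BFP: GHRL -1.02 to -0.79. ISL1-/- minus PDX1-/-: GHRL -1.71 to -1.36, MBOAT4 -1.27 to -0.86. ISL1-/- minus WT with ISL1: GHRL -1.80 to -1.47, GHRLOS -0.44 to 0.11, MBOAT4 -0.34 to 0.036. PDX1-/- minus WT: GHRLOS -0.56 to 0.69 with BFP and -0.73 to 0.57 with ISL1, MBOAT4 -0.20 to 0.50 with ISL1. Vector: GHRL -0.24 to 0.13 in ISL1-/-, -0.56 to 1.45 in PAX6-/- and 0.71 to 1.17 in PDX1-/-, GHRLOS -0.0013 to 1.05 in WT and -0.38 to 1.07 in PDX1-/-, MBOAT4 -0.45 to 0.094 in PAX6-/-. Differences of vector effects: GHRL -1.25 to 0.76 and MBOAT4 -0.13 to 0.41 in PAX6-/-, GHRLOS -0.77 to 0.66 and MBOAT4 -0.39 to 0.31 in PDX1-/-. Where this leaves an arm with 1 library, that library is assumed to vary like the other groups.

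The number of genes called in PAX6-/- minus WT with BFP was 1425, against 2455 by DESeq2, 4899 with only these groups, 6710 by voom and 6423 without both libraries, and 276 to 2909 with 1 library left out. Depth limits GHRLOS, at 7 to 95 counts, more than MBOAT4, at 71 to 600.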
